A study of Mus musculus with 24 samples.

Results

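The C/EBP transcription factors are described here in mouse aorta months after an infusion of angiotensin II. The members are the 4 genes Cebpa, Cebpb, Cebpd and Cebpg, matched by symbol, of 37606 genes counted in the series. They were chosen with results of these data in view, because Cebpb had the smallest p-value of all genes in the comparison at 2 months. For that reason the values at 2 months are given for the members as a description, with no test.

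RNA was sequenced from 24 homogenates of aorta from mice whose genotype is given as WT, with no further allele named. The mice had carried an osmotic minipump under the skin for 2 weeks, which delivered either angiotensin II (Ang II), a vasoconstrictor peptide used to make mice hypertensive, or vehicle (the sham groups). Aortas were collected 2, 4 or 6 months later, which gives 6 groups with 4 libraries in each. The labels give neither the age of the mice nor whether a group's libraries came from separate animals. Each p-value therefore measures only the spread between these libraries.

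C/EBP proteins share a basic leucine zipper: the basic part contacts DNA and the zipper pairs a protein with another member or with a related factor such as ATF4. C/EBP alpha drives the differentiation of adipocytes and myeloid cells and restrains proliferation, C/EBP beta and C/EBP delta are induced by inflammatory cytokines, glucocorticoids and cyclic AMP, and C/EBP gamma lacks a strong activation domain and acts mainly as a partner. Aortic tissue holds several kinds of cells that use them, among them macrophages and the adipocytes of the surrounding fat.

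The start-proximal promoters of 3 of the 4 members were matched by symbol in RefSeq promoter sequences of build GRCm38.p6, and Cebpd was not among them. They are shown as a description, because the motifs in them differ between Cebpb, Cebpa and Cebpg. The part of these motifs in the levels was not tested. Each window runs from base 250 to base 11 before the annotated start (240 bases). Capitals mark TGACG, the core of a cyclic AMP response element, and CCAAT, a common promoter box, either as written or on the opposite strand (CGTCA and ATTGG). The Cebpb window is chr2:167688665-167688904 on the plus strand, the Cebpa window chr7:35119043-35119282 on the plus strand, and the Cebpg window chr7:35056577-35056816 on the minus strand.
Cebpb: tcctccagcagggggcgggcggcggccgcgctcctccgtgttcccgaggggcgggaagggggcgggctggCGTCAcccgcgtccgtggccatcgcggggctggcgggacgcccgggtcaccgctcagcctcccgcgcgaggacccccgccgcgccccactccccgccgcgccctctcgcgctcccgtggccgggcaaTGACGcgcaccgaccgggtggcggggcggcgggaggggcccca
Cebpa: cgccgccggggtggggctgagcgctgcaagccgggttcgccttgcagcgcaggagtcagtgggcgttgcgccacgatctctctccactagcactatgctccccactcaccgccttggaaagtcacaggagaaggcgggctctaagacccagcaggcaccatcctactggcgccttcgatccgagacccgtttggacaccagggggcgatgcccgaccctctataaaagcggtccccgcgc
Cebpg: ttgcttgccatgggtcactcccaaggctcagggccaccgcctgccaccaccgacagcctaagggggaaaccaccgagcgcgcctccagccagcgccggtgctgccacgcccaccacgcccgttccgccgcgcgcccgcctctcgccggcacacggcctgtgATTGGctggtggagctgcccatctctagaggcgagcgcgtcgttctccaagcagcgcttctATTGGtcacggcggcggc
Cebpb held 2 matches to TGACG, at bases 180 to 176 (opposite strand) and 53 to 49 before the start, while Cebpa and Cebpg held 0. Of 32851 promoters of the same length, 16.88% held at least 1 such match and 3.485% at least 2. Cebpg held 2 matches to CCAAT, at bases 89 to 85 and 28 to 24 before the start and both on the opposite strand, and Cebpb and Cebpa held 0 (33.04% of promoters held at least 1 and 9.644% at least 2). The TATA box TATAAA, searched on both strands, was present 1 time in Cebpa, 30 to 25 bases before the start, and in 12.08% of promoters. Neither TTNNGNAA, a loose form of the site that C/EBP proteins bind, nor the full response element TGACGTCA, which contains TGACG, was found in the 3 windows (36% and 1.437% of promoters).

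The 6-month libraries differed in make-up from those of the earlier times. Mitochondrial transcripts took 31.7% to 59.3% of the counts there and 7.72% to 16.3% at 2 and 4 months, and the small nuclear RNA Rn7sk lay at 2748 to 9777 counts per 1000000 (CPM) against 1.44 to 13.2 CPM. Library totals ran from 19.16 to 58.68, in units of 1000000 counts. Levels are therefore compared within a time, and the order over times is a description. Smooth muscle markers, which define the aortic wall, were counted in every library (259 to 5102 CPM summed over 7 genes), and adipocyte markers summed to 3475 to 16796 CPM over 6 genes. Airway epithelium markers, which the aorta should lack, summed to between 2.09 and 8160 CPM.

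All 4 members were well counted in every library, with 411 counts or more. CPM are scaled by the TMM method over the 24 libraries, and divided by the length of each gene's merged exons (CPM per kb) where genes are compared with each other. On that per-kb scale Cebpa led in every group, with a median of 294 over the 24 libraries (range 111 to 477). Cebpb followed at 77.8 (42.9 to 239), then Cebpg at 12.9 (8.56 to 17.3) and Cebpd at 7.35 (4.28 to 11.6). Cebpa thus made up 61.8% to 80.0% of the per-kb sum of the 4 genes, Cebpb 14.4% to 34.8%, Cebpg 1.90% to 5.29% and Cebpd 0.868% to 5.06%. Cebpe, the granulocyte member of the family, had 0 to 7 counts per library, with at least 1 count in 16 of 24 libraries, and was not tested. Since the samples are homogenates, fewer cells of a type and less RNA per cell cannot be told apart.

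**Figure D1:**
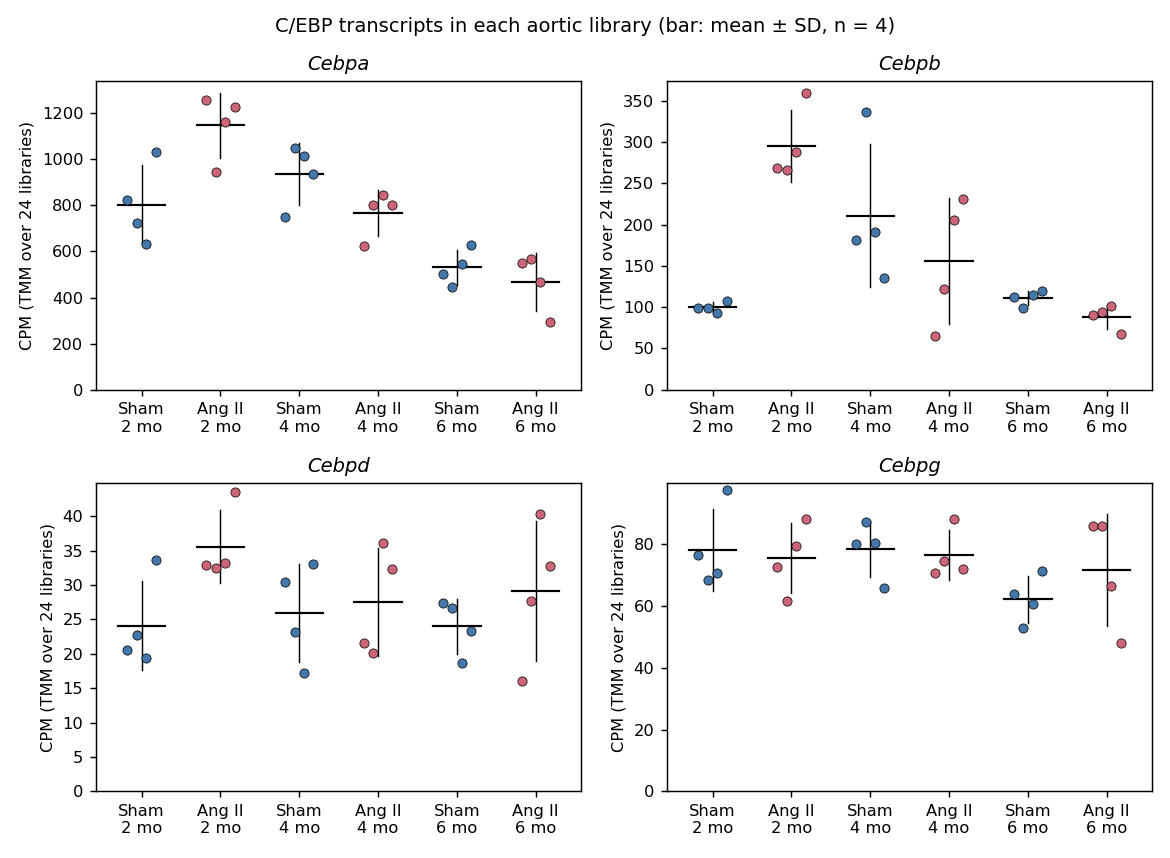
Level of each member (CPM, TMM-scaled over 24 libraries) in the 6 groups, with 1 point per library and a bar for the mean ± SD (n = 4). The Ang II libraries at 2 months sit at 266 to 359 CPM for Cebpb, above the 93.1 to 108 CPM of their sham libraries, and the 4-month groups spread widely.

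The genes are compact. Cebpb (ENSMUSG00000056501.3) is a single exon of 1504 bases on chromosome 2, from 167688915 to 167690418 on the plus strand (mm10), and Cebpd (ENSMUSG00000071637.5) lies on chromosome 16, from 15887286 to 15891031. Cebpa (ENSMUSG00000034957.10, 35119293 to 35121928, plus strand) and Cebpg (ENSMUSG00000056216.9, 35046422 to 35056573, minus strand) are neighbours on chromosome 7. Exons of Cebpb share 312 bases with the antisense gene Tmem189, and those of Cebpd share 562 bases with the antisense gene Spidr, and the sources used here do not give the strand setting of the counting. Reads from these stretches cannot be assigned to one gene or the other. Tmem189 itself had a mean of 28.4 CPM in sham and 31.9 CPM in Ang II libraries at 2 months (log2 fold change 0.19), and Spidr a mean of 7.45 and 7.36 CPM.

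Cebpb encodes C/EBP beta, which acts in the acute phase response and in activated macrophages and is made as longer, activating and shorter, repressing protein forms. At 2 months sham replicates 1 to 4 had 99.3, 99.3, 93.1 and 108 CPM of it, and Ang II replicates 1 to 4 had 269, 266, 288 and 359 CPM. All 4 Ang II libraries lay above every sham library, and the sham libraries differed little among themselves. The fitted log2 fold change was 1.59 (SE 0.114), or 3.01-fold. Among 16421 genes tested at this time 7.89% had groups that did not overlap (2.38% higher and 5.51% lower after Ang II) and 1.81% passed edgeR's quasi-likelihood test at an adjusted p of 0.05. These shares are given for scale only, since this contrast chose the gene. In the authors' deposited table the log2 fold change was 1.58 with a standard error of 0.120.

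Cebpa, the most abundant member, had 823, 723, 633 and 1031 CPM after sham and 1258, 945, 1162 and 1229 CPM after Ang II at 2 months. The groups overlapped by a single library on each side, and the log2 fold change was 0.54 (SE 0.168). Cebpd, which acts early in adipocyte formation and in acute inflammation, stood at 20.6, 22.7, 19.4 and 33.6 CPM in sham and 32.9, 32.5, 33.2 and 43.5 CPM in Ang II libraries. Only the sham library at 33.6 CPM reached the Ang II range, and the log2 fold change was 0.59 (SE 0.182). Cebpg, the partner subunit, stood at 76.5, 68.3, 70.5 and 97.4 CPM in sham and 72.5, 61.6, 79.4 and 88.3 CPM in Ang II libraries. Its groups lay over each other, with a log2 fold change of -0.03 (SE 0.138). When levels were scaled to the counts outside mitochondrial and ribosomal RNA genes instead of by TMM, the groups at 2 months no longer overlapped for Cebpa (897 to 1286 against 1490 to 1716 CPM) or Cebpd (27.6 to 41.9 against 44.9 to 59.2 CPM). On that scale 7.45% of the 16421 genes had groups that did not overlap, and 2.73% of the 16421 were higher after Ang II in this way; nothing is read from this contrast.

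Other transcripts moved in the same libraries. The summed immediate early genes, which rise with tissue handling as well as with stimuli, lay at 248 to 394 CPM in sham and at 1549, 867, 438 and 468 CPM in Ang II replicates 1 to 4 at 2 months, and 2 of 10 rose (Atf3 and Nr4a1, log2 fold changes 2.33 and 3.09, edgeR adjusted p = 0.0110 and 0.00820). Cebpb in Ang II replicates 1 to 4 was 269, 266, 288 and 359 CPM. Macrophage markers summed to 216 to 346 CPM in sham and 374 to 455 CPM in Ang II libraries, with 3 of 10 higher by edgeR (Cd68, Adgre1 and Trem2), 6 by DESeq2 and 7 by limma voom. Smooth muscle markers fell with 7 of 7 genes by edgeR. They summed to 2479 to 5102 CPM in sham and 479 to 1252 CPM in Ang II libraries. Sham libraries at 4 months summed to 452 to 1925 CPM of these markers. Of all genes at 2 months 0.371% passed by edgeR as higher and 1.44% as lower, and DESeq2 called 727. Neutrophil markers lay at 1.73 to 5.17 CPM summed over 6 genes at 2 months, with no more than 3 of the 6 counted in some libraries. Of the 3 tested 0 passed, and 1 had an unadjusted p under 0.05, as had 10.8% of all genes. The part of these shifts in the Cebpb difference was not tested.

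**Figure D2:**
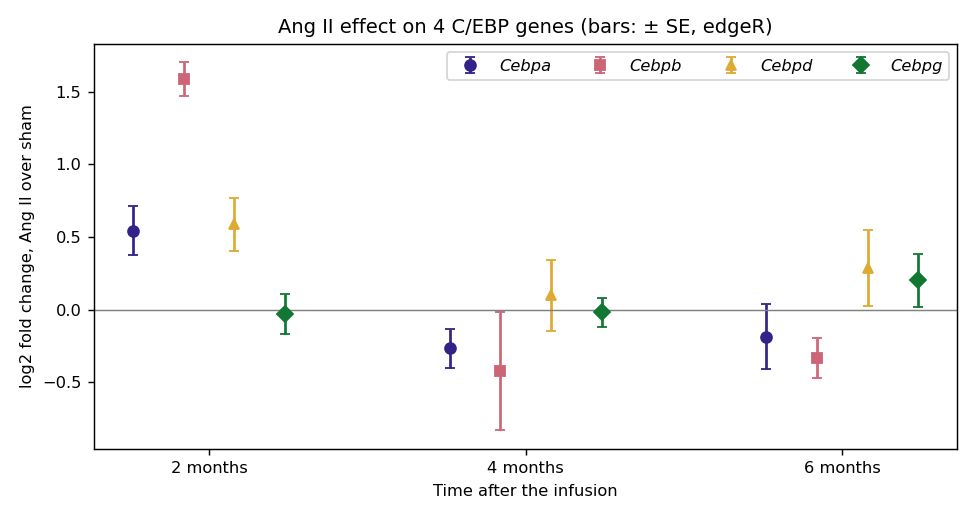
Log2 fold change of Ang II over sham for the 4 members at 2, 4 and 6 months after the infusion, with bars of 1 standard error from edgeR. Cebpb lies at 1.59 with an SE of 0.114 at 2 months and at -0.42 with an SE of 0.408 at 4 months. The members were chosen on the 2-month values.

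The comparison at 4 months uses libraries that played no part in choosing the genes. None of the 4 members passed the edgeR quasi-likelihood test there, with 0 of 4 also at an unadjusted p under 0.05 and 0 of 4 by DESeq2 or limma voom. Of 16127 genes tested, 0.707% passed and 15.5% had an unadjusted p under 0.05. Groups did not overlap for 10.2% (3.22% higher and 7.03% lower), and 0 of 4 members had such groups. Cebpb stood at 181, 336, 191 and 135 CPM in sham and 64.5, 122, 206 and 231 CPM in Ang II libraries. The ranges crossed over most of their length, with the highest value in a sham library and the lowest in an Ang II library. The log2 fold change was -0.42 (SE 0.408, 95% interval -1.35 to 0.51, edgeR adjusted p = 0.631). Without sham replicate 2, at 336 CPM, it was -0.10.

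The spread of Cebpb within groups was wider at 4 months than at either other time. The spread at 2 months entered the p-value on which the members were chosen, so it is a description. The coefficient of variation was 41.2% in sham and 49.3% in Ang II libraries, against 6.03% and 14.8% at 2 months and 8.08% and 16.4% at 6 months. The immediate early sum spread in the same Ang II libraries, at 188, 369, 666 and 678 CPM in replicates 1 to 4, which is the order of their Cebpb levels. In the sham libraries the sum was 376, 473, 324 and 281 CPM, highest in the replicate 2 that had the most Cebpb. Sham replicate 1 had a higher sum than replicate 3 but less Cebpb (181 against 191 CPM). Over 24 libraries the relation of Cebpb to the immediate early sum did not pass (r = 0.448, adjusted permutation p = 0.209). The part of these genes in the spread was not tested. Macrophage markers lay at 181 to 350 CPM in sham and 397 to 505 CPM in Ang II libraries at 4 months. Of these markers 2 of 10 were higher by edgeR (Cd68 and Trem2) and 6 by DESeq2 and by limma voom. Of all genes 0.143% passed by edgeR as higher, and DESeq2 called 993. The part of the macrophage markers in the Cebpb levels was not tested.

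The other 3 members did not pass at 4 months either. Cebpa stood at 748, 1047, 1013 and 938 CPM in sham and 623, 803, 845 and 801 CPM in Ang II libraries. Only 1 sham library fell into the Ang II range, and the log2 fold change was -0.27 (SE 0.135, edgeR adjusted p = 0.380). Cebpd stood at 30.4, 23.1, 17.2 and 33.0 CPM in sham and 21.6, 20.0, 36.0 and 32.3 CPM in Ang II libraries, a log2 fold change of 0.10 (SE 0.245, edgeR adjusted p = 0.852). Cebpg stood at 80.1, 87.2, 80.5 and 65.8 CPM in sham and 70.7, 74.7, 88.2 and 72.0 CPM in Ang II libraries, a log2 fold change of -0.02 (SE 0.100, edgeR adjusted p = 0.936). The 95% interval of Cebpg, -0.25 to 0.21, was the narrowest of the 4. Scaling to counts outside mitochondrial and ribosomal RNA genes moved every gene by 0.11 on the log2 scale at 4 months, relative to TMM, and turned the Cebpg means to 104 in sham and 109 CPM in Ang II libraries.

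At 6 months 0 of 19343 genes passed the edgeR quasi-likelihood test (0%), with 976 at an unadjusted p under 0.05 (5.05%), 63 by DESeq2 and 0 by limma voom. The members were no exception: 0 of 4 passed by edgeR, DESeq2 or limma voom, and 1 of 4, Cebpb, had an unadjusted p under 0.05. Cebpb stood at 112, 98.6, 114 and 120 CPM in sham and 91.0, 94.2, 101 and 67.5 CPM in Ang II libraries. Of the Ang II libraries, 3 lay below every sham library and 1 lay just above the lowest, so the groups overlapped, while 2.88% of all genes had groups that did not overlap (1.33% higher and 1.55% lower). The log2 fold change was -0.33 (SE 0.137, 95% interval -0.64 to -0.02, edgeR unadjusted p = 0.0388, adjusted p = 0.935). Immediate early genes summed to 248 to 375 CPM in these sham libraries and to 213, 217, 965 and 481 CPM after Ang II (replicates 1 to 4). Macrophage markers summed to 420 to 630 CPM after sham and 382 to 504 CPM after Ang II, and skeletal muscle markers to 38 to 507 and 475 to 6131 CPM. Of the 4 skeletal muscle markers 0 passed by edgeR or limma voom, 4 had an unadjusted p under 0.05 (median log2 fold change 3.29) and DESeq2 called 1, Myh2. The part of these genes in the Cebpb levels was not tested. The sign of the Cebpb change was opposite to that at 2 months, but the difference between these times was not tested for the members, because they were chosen at 2 months.

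Ang II replicate 4 stood apart at 6 months. It held the lowest Cebpa, Cebpb and Cebpg of all 24 libraries but 1 for Cebpb, the fewest counts outside mitochondrial and ribosomal RNA genes (12.6, in units of 1000000) and the highest Rn7sk. Without it the log2 fold change of Cebpb was -0.21. Cebpa stood at 503, 448, 547 and 627 CPM in sham and 550, 568, 465 and 292 CPM in Ang II libraries (log2 fold change -0.19, SE 0.221, and -0.01 without that library). Cebpg stood at 63.8, 53.0, 60.5 and 71.3 CPM in sham and 85.8, 85.9, 66.5 and 48.1 CPM in Ang II libraries, so that 2 Ang II libraries lay above and 1 below every sham library (log2 fold change 0.20, SE 0.182, and 0.36 without the same library). Cebpd stood at 27.3, 26.7, 18.6 and 23.3 CPM in sham and 16.02, 27.7, 40.2 and 32.8 CPM in Ang II libraries (log2 fold change 0.29, SE 0.262). The edgeR adjusted p was above 0.9 for each of the 3.

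Whether the Ang II effect differed between 4 and 6 months was tested as an interaction in edgeR. The difference was 0.14 (SE 0.256) for Cebpa, 0.15 (SE 0.448) for Cebpb, 0.25 (SE 0.376) for Cebpd and 0.28 (SE 0.207) for Cebpg on the log2 scale, with adjusted p from 0.592 to 0.917. Of 19571 genes, 0.0255% passed (0.00511% with a higher effect at 6 months and 0.0204% with a lower one) and 12.4% had an unadjusted p under 0.05. By edgeR 0 of 4 members passed, also at an unadjusted p under 0.05 and by DESeq2 and limma voom. The interval for Cebpb, -0.80 to 1.11, leaves room for a difference in either direction.

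Set in order, the mean level of Cebpb was 295 ± 43.6 CPM (SD, n = 4, as for each group) in Ang II at 2 months, 211 ± 86.8 in sham at 4 months, 156 ± 76.8 in Ang II at 4 months, 111 ± 8.97 in sham at 6 months, 99.9 ± 6.02 in sham at 2 months and 88.4 ± 14.5 in Ang II at 6 months. Each group's range overlapped that of its neighbour in this order. The Ang II group at 2 months overlapped only sham at 4 months, through the single library at 336 CPM. The same order held when levels were scaled to counts outside mitochondrial and ribosomal RNA genes. The mean of Cebpa ran from 1148 ± 141 CPM in Ang II at 2 months to 469 ± 126 in Ang II at 6 months, and both 6-month groups lay lowest. Cebpg moved least, between means of 62.2 ± 7.60 CPM in sham at 6 months and 78.4 ± 9.02 in sham at 4 months.

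The balance between members is free of the scaling between libraries. At 2 months it contains the Cebpb values on which the members were chosen, so it is a description. On the per-kb scale Cebpb was 21.1%, 24.1%, 25.8% and 18.3% of Cebpa in sham and 37.4%, 49.3%, 43.4% and 51.2% in Ang II libraries at 2 months. At that time all 4 Ang II libraries were above every sham library. The ranges crossed at 4 months (25.3% to 56.2% in sham, 18.2% to 50.6% in Ang II) and at 6 months (33.5% to 38.9% and 29.0% to 40.5%). The ratio of Cebpb to Cebpd per kb was 7.99 to 12.0 in sham and 20.3 to 21.6 in Ang II libraries at 2 months, where the Ang II libraries were nearly alike. At 4 months it ran from 10.2 to 36.2 in sham and 7.43 to 17.8 in Ang II libraries.

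**Figure D3:**
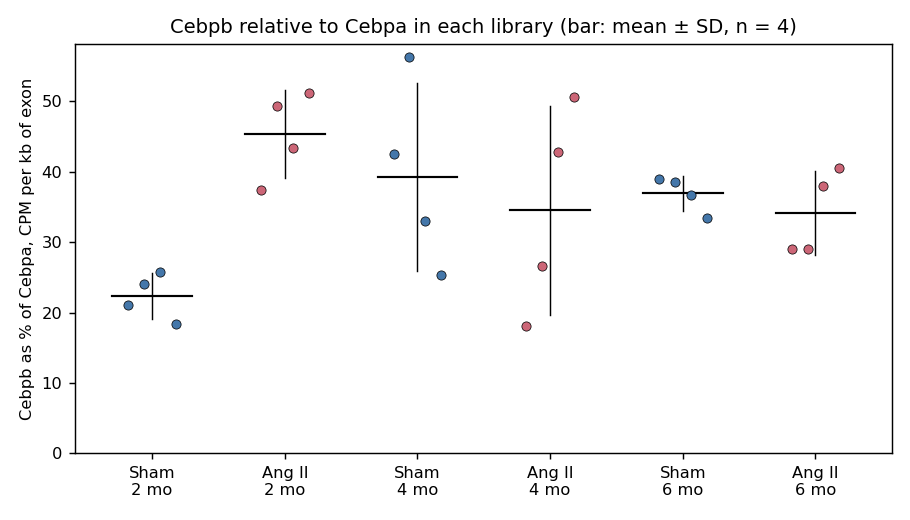
Cebpb as a percentage of Cebpa in each library, both in CPM per kb of exon, with the mean ± SD (n = 4). Sham libraries at 2 months lie at 18.3% to 25.8% and Ang II libraries at 37.4% to 51.2%, and the groups overlap at 4 and 6 months. The choice of members used the 2-month values.

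Once each group's mean was removed, Cebpa, Cebpb and Cebpg varied together from library to library. Cebpd did not pass the test with any of them. The 24 libraries include the 8 at 2 months, whose spread within groups entered the p-value on which the members were chosen. All genes of a library share its depth and make-up, and the share of other gene pairs that correlate as strongly was not computed. Nothing particular to the family is read from these values. Cebpa and Cebpg correlated across 24 libraries (Pearson r = 0.834, permutation p = 0.0003, Benjamini-Hochberg adjusted 0.0018 over 6 pairs, Spearman rho = 0.806, adjusted permutation p = 0.0012). The relation held without the 2 libraries farthest from the median (r = 0.759), and r was 0.672 in the 16 libraries at 2 and 4 months and 0.972 in the 8 at 6 months. Cebpb followed both with smaller coefficients: r = 0.510 with Cebpa (permutation p adjusted 0.00576, rho = 0.652, and 0.498 without the farthest libraries) and r = 0.479 with Cebpg (permutation p adjusted 0.00576, rho = 0.643, and 0.522). Within the 2 kinds of library these were 0.512 and 0.884 for Cebpa, and 0.498 and 0.802 for Cebpg. For Cebpd r was 0.225 to Cebpb, -0.07 to Cebpa and -0.07 to Cebpg (permutation p adjusted 0.608 to 0.827). These values pool opposite signs: r was 0.339, 0.302 and 0.360 at 2 and 4 months and -0.134, -0.475 and -0.524 at 6 months.

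Library make-up was set beside these deviations. Of 16 relations between the members and the summed adipocyte, macrophage, smooth muscle and immediate early markers, chosen after the data were seen, 0 passed a permutation test with Benjamini-Hochberg adjustment. Over 24 libraries the strongest was that of Cebpd with the adipocyte sum (r = 0.563, rho = 0.580, adjusted permutation p = 0.127, r = 0.517 without the 2 farthest libraries). Cebpa and Cebpg had r = 0.495 and 0.478 with that sum (adjusted permutation p = 0.186 for each). In the 16 libraries at 2 and 4 months r was 0.696 for Cebpa, 0.681 for Cebpg and 0.553 for Cebpd, and at 6 months 0.247, 0.244 and 0.588. The part of adipocyte content in the relation of Cebpa and Cebpg was not tested. Cebpb had r = 0.448 with the immediate early sum (rho = 0.306, adjusted permutation p = 0.209), 0.597 in the 16 libraries at 2 and 4 months and 0.0179 at 6 months.

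**Figure D4:**
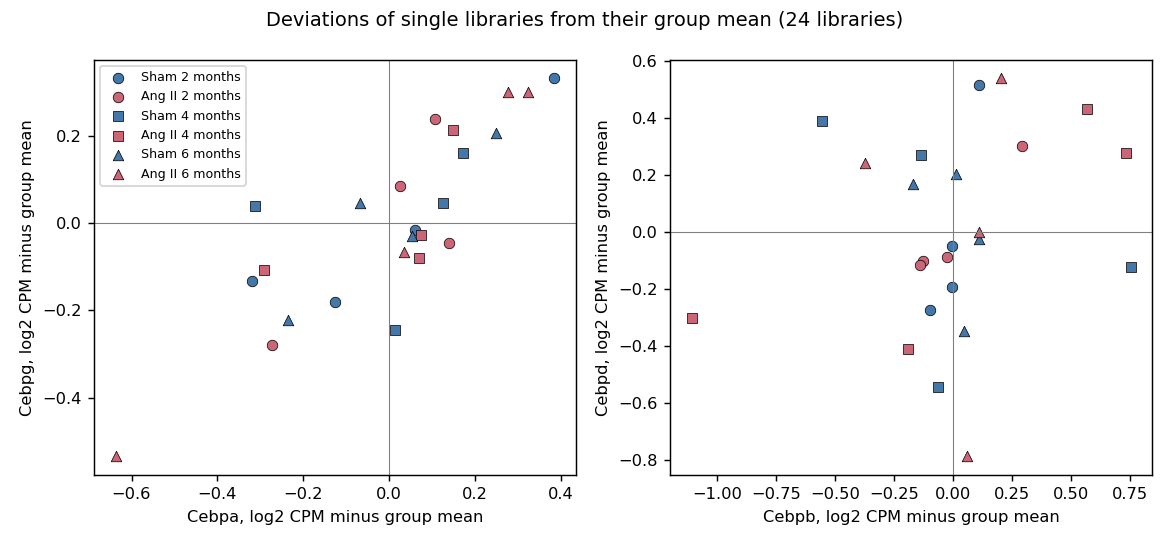
Deviation of each of 24 libraries from its group mean (log2 CPM), for Cebpg against Cebpa at left and Cebpd against Cebpb at right, by group. The left points follow a line (r = 0.834), with Ang II replicate 4 at 6 months lowest, and the right points scatter (r = 0.225).

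The genes whose deviations were most like those of each member were ranked among 14104 genes with a mean of at least 1 CPM, as a description over 24 libraries that share depth and make-up. For Cebpb they included Tob2, which encodes an antiproliferative protein, at r = 0.842, the death receptor gene Tnfrsf10b at 0.837, the kinase gene Sgk1 at 0.821 and the nuclear receptor coregulator gene Pnrc1 at 0.791. For Cebpd they included Nfkbia, the inhibitor of NF-kB, at 0.783, and Arpc1b, an Arp2/3 subunit gene, at 0.802. The list of Cebpa was led by Tmem185b at 0.908 and Adi1, of the methionine salvage pathway, at 0.897, and that of Cebpg by the translation release factor gene Etf1 at 0.949 and Hikeshi, which imports HSP70, at 0.938. None of the 5 genes of one member was among the 5 of another.

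Of the relatives named beside the members, Ddit3 and Cebpz were tested. Ddit3 encodes the stress-induced partner CHOP, which blocks C/EBP binding. At 2 months it had a mean of 43.4 ± 18.7 CPM in sham and 24.5 ± 3.70 CPM in Ang II libraries. Every Ang II library lay below every sham library (19.9 to 27.8 against 28.4 to 70.6 CPM), as for 5.51% of all genes. Its log2 fold change of -0.80 (SE 0.259) did not pass (edgeR adjusted p = 0.252), and at 4 and 6 months the log2 fold change was -0.05 and 0.19. Cebpz, which shares the name but not the zipper, had log2 fold changes of 0.03, 0.10 and -0.08 at 2, 4 and 6 months.

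Among 13 partners and brakes of the family, all tested, 1 rose at 2 months by edgeR. Atf4, the amino acid stress factor that dimerises with C/EBP proteins, had 99.4 ± 9.91 CPM after sham and 139 ± 7.74 CPM after Ang II, which is 0.51 on the log2 scale (SE 0.103, edgeR adjusted p = 0.0480), with no overlap of the groups. That call held under 3 of 16 other settings, DESeq2 and limma voom among them. The edgeR adjusted p lay between 0.05 and 0.17 under the other 13, each omission of a single library among them. The median log2 fold change of the list was -0.07 and that of all genes 0.01. Of all genes 0.371% passed as higher and 2.38% were higher without overlap. At 4 and 6 months 0 of the 13 passed by edgeR, DESeq2 or limma voom. At an unadjusted p under 0.05 there were 2 and 1, against 15.5% and 5.05% of all genes. The smallest p belonged to Socs3, the feedback inhibitor of cytokine signals, at 4 months (log2 fold change 0.54, edgeR adjusted p = 0.166) and to Zfp36, which encodes an mRNA decay factor, at 6 months (1.21, adjusted p = 0.922).

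Signalling that induces Cebpb and Cebpd was described in 2 lists. Some of the listed genes, such as Sgk1 and Fkbp5, are themselves induced by such a signal. Of 13 genes of glucocorticoid and cyclic AMP signalling, 1 rose at 2 months: Sgk1, a kinase gene induced by corticosteroids, had 32.2 ± 5.82 CPM after sham and 81.8 ± 14.3 CPM after Ang II, which is 1.37 on the log2 scale (SE 0.162, edgeR adjusted p = 0.00820). The groups did not overlap (26.8 to 40.0 against 66.6 to 100.2 CPM), and the call held under all 16 other settings. Of all genes 0.371% passed as higher, and 2.38% were higher without overlap. Fkbp5, a glucocorticoid receptor co-chaperone gene that glucocorticoids induce, had 71.6 ± 22.5 CPM after sham and 33.5 ± 5.64 CPM after Ang II. Its groups did not overlap either (5.51% of all genes were lower in this way). Its log2 fold change of -1.07 (SE 0.230) did not pass by edgeR (adjusted p = 0.0633), while DESeq2 and limma voom called it lower. It is named outside the rule, after its values were seen. DESeq2 and limma voom called Sgk1 and Fkbp5 and no other gene of the list, whose median was 0.20. Of 18 genes of the IL-6 family and NF-kB, 16 were tested and 0 passed at 2 months by edgeR. Of these 3 had an unadjusted p under 0.05 (10.8% of all genes did), and 1 was called by DESeq2 and by limma voom. That gene, Osmr, the oncostatin M receptor gene, had a log2 fold change of -0.43 (edgeR adjusted p = 0.137), and the list's median was 0.00 on the same scale. Il6 and Il1b, cytokine genes of this list, were too low to test at 2 and 4 months. At 4 and 6 months 0 genes of either list passed by edgeR, with 2 to 3 per list and time at an unadjusted p under 0.05. Of all genes 15.5% and 5.05% had such a p at these times. Of the 993 genes that DESeq2 called at 4 months, 2 were in these lists. They were Il6ra, a receptor subunit of interleukin 6 (log2 fold change 0.57, edgeR adjusted p = 0.0881), and the adrenergic receptor gene Adrb3 (0.66, edgeR adjusted p = 0.135). At 6 months DESeq2 called 0 genes of either list, and limma voom called 0 of them at either time.

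Genes that C/EBP proteins are known to activate were described in 3 lists. Of all genes at 2 months, 10.8% had an edgeR unadjusted p under 0.05, and DESeq2 called 727. Of 17 acute phase and inflammatory genes, 13 were tested at 2 months and 0 passed by edgeR, DESeq2 or limma voom (1 at an unadjusted p under 0.05), with a median log2 fold change of 0.26. Saa3, an acute phase serum amyloid gene, had 1.87 ± 0.952 CPM in sham and 4.10 ± 1.93 CPM in Ang II libraries (log2 fold change 1.15, edgeR adjusted p = 0.375). Of 14 myeloid and granulocyte genes, 10 were tested and 0 passed by edgeR (2 at an unadjusted p under 0.05, 0 by DESeq2 and 1 by limma voom). Their median was 0.47. Csf1r, the receptor of macrophage colony stimulating factor, had a log2 fold change of 0.51 (edgeR adjusted p = 0.327) and Csf3r, that of granulocytes, 0.94 (adjusted p = 0.179). Csf1r and Csf3r are also in the macrophage and the neutrophil marker lists.

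The 17 adipocyte targets, all tested, had a median log2 fold change of 0.16 at 2 months, and 0 passed by edgeR or limma voom (3 at an unadjusted p under 0.05, 1 by DESeq2). Cidec, a lipid droplet gene, had a log2 fold change of 0.45 (edgeR adjusted p = 0.196) and the hormone gene Adipoq 0.37 (adjusted p = 0.429). At 4 months 3 of 17 fell by edgeR and 0 rose, where 0.564% of all genes passed as lower. Limma voom called these 3 and Dgat2 lower, and DESeq2 called those 4 and Lep lower and 1, the adipsin gene Cfd, higher. At this time 15.5% of all genes had an edgeR unadjusted p under 0.05, and DESeq2 called 993 genes in all. Scd1, the stearoyl-CoA desaturase gene, had 5156 ± 1554 CPM after sham and 2085.5 ± 248.7 CPM after Ang II, a change of -1.28 on the log2 scale (SE 0.222, edgeR adjusted p = 0.0484). Agpat2, an enzyme gene of triglyceride synthesis, fell from 413 ± 37.1 to 253 ± 31.6 CPM (-0.68, adjusted p = 0.0460), and Slc2a4, the insulin-responsive glucose transporter gene, from 335 ± 35.7 to 222 ± 15.03 CPM (-0.57, adjusted p = 0.0460). Each of these 3 calls was lost under 11 of 16 other settings, the omission of all but 1 of the 8 libraries in turn among them, and all kept their sign. The adipocyte list's median at 4 months was -0.15 against 0.04 for all genes. Adipocyte markers summed to 10378 to 12090 CPM in sham and 12994 to 16796 CPM in Ang II libraries. These markers are all among the adipocyte targets, and the sum weighs the abundant ones most. Their median log2 fold change was 0.12, and 0 of 6 passed by edgeR. Brown adipocyte markers summed to 4364, 4774, 4087.5 and 1686 CPM in sham replicates 1 to 4 and to 1796 to 1980.5 CPM in Ang II libraries. Of the 4 brown adipocyte markers 0 passed by edgeR, 3 had an unadjusted p under 0.05 (median log2 fold change -1.02), DESeq2 called Ucp1 and Cidea lower and limma voom Cidea. Sham replicate 4 also stood apart in smooth muscle markers, at 1925 CPM against 452 to 510 CPM in the other 3. The part of these markers in the adipocyte values was not tested.

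In the other target lists 0 genes passed at 4 months by edgeR. Of the acute phase genes 13 were tested, 2 had an unadjusted p under 0.05, and DESeq2 called 1, Orm1 (log2 fold change -0.79, edgeR adjusted p = 0.170), and limma voom 0. Hepatocyte markers, which share the liver origin of several of these genes, summed to 125 and 1740 CPM in Ang II replicates 3 and 4, to 1.65 and 2.13 CPM in Ang II replicates 1 and 2 and to 1.17 to 1.67 CPM in the sham libraries, and their part was not tested. Of the myeloid genes 10 were tested and 6 had an unadjusted p under 0.05, with a median of 0.68 (15.5% of all genes had such a p). DESeq2 called 3 of them and limma voom 1, Lyz2, the macrophage lysozyme gene (216 ± 43.04 CPM after sham and 456 ± 153 CPM after Ang II, a log2 fold change of 1.10, edgeR adjusted p = 0.0865). Macrophage markers summed to more in these Ang II libraries, as given above, and their part was not tested. At 6 months 0 genes of the 3 target lists passed by edgeR or limma voom (2, 1 and 2 at an unadjusted p under 0.05) and 1 by DESeq2, Klf15, a glucocorticoid-responsive adipocyte gene (log2 fold change 0.72, edgeR adjusted p = 0.922). The medians at 6 months were 0.07, -0.41 and 0.20 for the acute phase, myeloid and adipocyte lists, against -0.03 for all genes. In the interaction of 4 and 6 months 0 genes of the 6 lists passed by edgeR or limma voom, with 0 to 5 per list at an unadjusted p under 0.05. DESeq2 called 1 acute phase gene (Orm1), 2 myeloid genes (Csf1r and Lyz2) and 3 adipocyte genes (Scd1, Agpat2 and Klf15), of 278 genes in all.

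**Figure D5:**
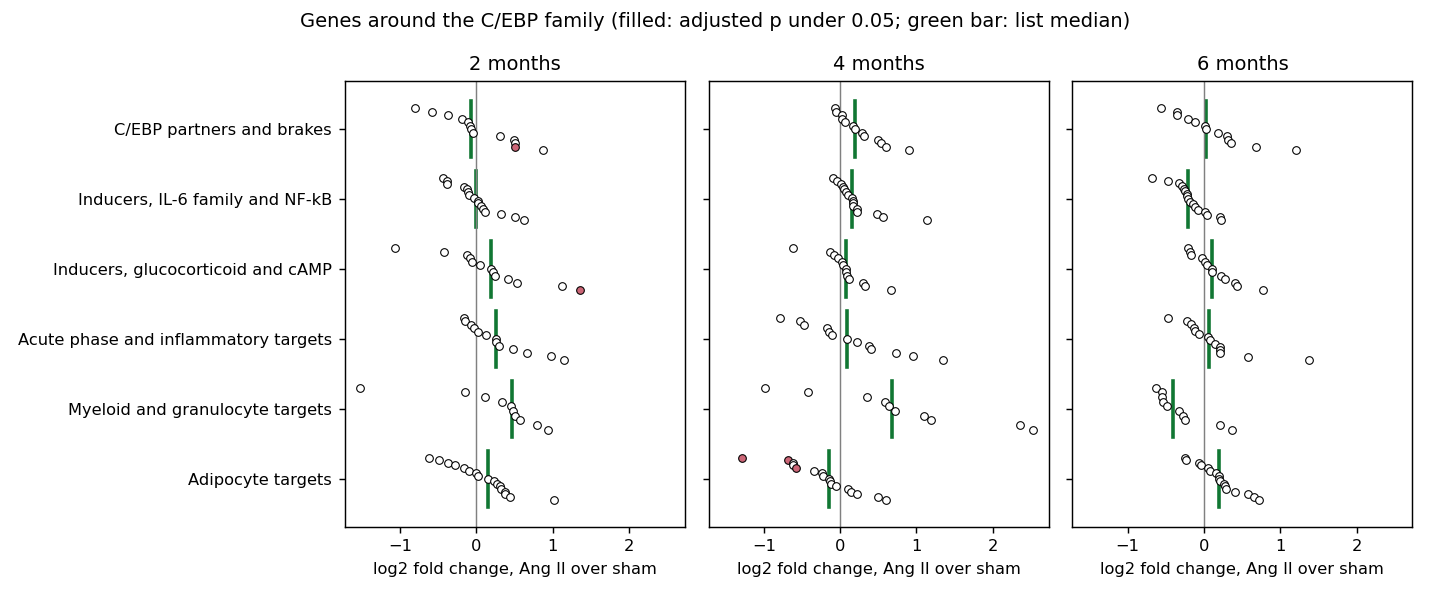
Log2 fold change of Ang II over sham for the tested genes of 6 lists around the family at 2, 4 and 6 months, with filled points for an edgeR adjusted p under 0.05 and a bar for each list's median. Filled points are Atf4 and Sgk1 at 2 months and Scd1, Agpat2 and Slc2a4 at 4 months.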

How the data were processed

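The authors deposited raw read counts for 37606 genes in 24 aortic libraries. For each time their deposited results list, per gene, the log2 fold change of Ang II over sham with its standard error, the test score, the raw and adjusted p-value and the fold change as a ratio. Per the submitters' processing notes the tools were FastQC, cutadapt, STAR, featureCounts and DESeq2, on build mm10. The sources used here give neither their versions nor the strand setting. Symbols came from the deposited tables for 23514 gene IDs and from the reference annotation for 14015, and 77 had none. Cop1 is listed as Rfwd2.

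The counts were tested with edgeR 4.0.16 (R 4.3.3): filterByExpr (minimum count 10, minimum total 15), TMM scaling, the quasi-likelihood F test (glmQLFit, glmQLFTest) and Benjamini-Hochberg adjustment over all genes at 0.05, on the 8 libraries of a time or, for the interaction, the 16 libraries at 4 and 6 months. The procedure was tested on simulated data. No pair of replicate columns was identical. Correlations used log2 CPM (prior count 3) minus the group mean and 100000 permutations within groups (Python 3.11.15, numpy 2.4.6), two-sided. Alternatives were DESeq2 size factors, DESeq2 1.42.0, limma 3.58.1 voom with quality weights, no filter, a mean count of at least 5, removal of mitochondrial and ribosomal RNA genes, a replicate block, all 24 libraries in 1 fit and each library left out. For genes outside the family they were applied after the data were seen, and so was the scaling of the members' levels to counts outside mitochondrial and ribosomal RNA genes.

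The members and lists were chosen with earlier results of these data known. The rule for named genes took the members, Cebpe, Cebpz and Ddit3, up to 4 called genes per list with the largest fold change or, with none called, the 2 with the smallest p, of which the text gives part, and the 5 genes most like each member, of which 1 is not reported here and the text names part of the rest. The 6 lists covered partners and brakes, IL-6 family and NF-kB genes, glucocorticoid and cAMP signalling genes, and acute phase, myeloid and adipocyte targets. Marker lists of other cell types were summed per library.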

Additional observations from a re-analysis of the deposited data

Results flagged for a closer look

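Cebpd in Ang II replicate 4 at 2 months stood at 43.5 CPM, while the other 3 libraries of its group lay between 32.5 and 33.2 CPM, a gap of 0.938 of the group's range. Chance flags about 1 in 20 groups in this way, and 24 groups (4 members in 6 groups) were examined. Without this library the log2 fold change of Cebpd at 2 months was 0.49 in place of 0.59.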

How the results depend on the processing

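Of 284 values of the members under other settings, 220 could be tested and 0 of those had an adjusted p under 0.05 (smallest 0.273). At 2 months Cebpb kept a log2 fold change of 1.49 to 1.63. Signs turned for small values only: Cebpd at 4 months (0.10) was -0.027 by limma voom and -0.057 to 0.23 with 1 library left out, Cebpg at 4 months (-0.02) was -0.10 to 0.039, the Cebpb interaction (0.15) was -0.17 to 0.41, and Ddit3 at 4 months (-0.05) was 0.076 by limma voom and -0.19 to 0.12. Cebpg at 2 months, given without a test, ran from -0.10 to 0.09.

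The counts of all genes past the threshold moved far more, and the cause was not tested. At 2 months (297) they were 727 by DESeq2, 629 by limma voom and 78 to 255 with 1 library left out (78 without sham replicate 1, 135, 103 and 103 without Ang II replicates 2, 3 and 4). For Ang II against sham at 4 months (114) they were 993 by DESeq2, 602 by limma voom, 40 without a filter, 68 with a mean count of at least 5, 233 without mitochondrial and ribosomal RNA genes, 11 with all 24 libraries in 1 fit, and 0 to 674 with 1 library left out: 674 without sham replicate 4, 3 without sham replicate 3, 1 without Ang II replicate 1 and 0 without any of the other 5. At 6 months (0) they were 63 by DESeq2 and 0 with any library left out. For the interaction (5) they were 278 by DESeq2, 14 by limma voom, 1 without a filter and 0 to 16 with 1 library left out (16 without sham replicate 4 at 4 months, 10 without Ang II replicate 1 at 6 months, 4 to 6 without sham replicate 3 or 4 or Ang II replicate 4 at 6 months, and 0 without any other).

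The labels do not say whether a replicate number pairs a sham with an Ang II library. Same-numbered libraries correlated at -0.29 to 0.44, -0.19 to 0.33 and -0.17 to 0.51 at 2, 4 and 6 months. Differently numbered libraries correlated at -0.47 to 0.46, -0.24 to 0.30 and -0.57 to 0.43. These few values do not settle whether the samples are paired. With the replicate block the counts were 208, 0 and 0 at the 3 times and 0 for the interaction, and Cebpb had log2 fold changes of 1.58, -0.50 and -0.34.

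Leaving out 1 of 4 libraries leaves 3 in a group. Cebpb rests on 875 counts or more in every library and Cebpd, the lowest member, on 411 or more.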
